A study of Mus musculus with 4 samples.

Results

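The transcripts followed here are 10 genes that mark the lining of lung blood vessels, the endothelium. They are Sox17, Cdh5, Pecam1, Cldn5, Kdr, Tek, Ednrb, Car4, Gpihbp1 and Plvap. The rule picks them by name, as genes known for vessel identity, and was written with earlier results of these data known. All 10 were found among the 23238 gene symbols of the lung tables, each on a single line, and all 10 passed the filter on low values, a mean normalized read count of at least 4 over the libraries, as did 15164 lines in all.

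The RNA came from whole lung of CDF1 mice, males per the study's methods, in a crossing of treadmill exercise (E) with tumor (T). E(-)T(-) was the normal control, without exercise or tumor, and E(+)T(-) was the normal exercise group. E(-)T(+) was the cancer control and E(+)T(+) the cancer exercise group, and both had received CT26 cells, a mouse colorectal carcinoma line, by the tail vein. The labels give postnatal day 28 for every group, which the methods give as the age at purchase, and 10 mice per group. Each group has 1 library, and the study's account, which names a representative animal for calf muscle and a similar analysis for lung, points to 1 mouse each without saying so, so no difference below has a replicate check and none was tested.

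Endothelial cells form the inner wall of every vessel, and in the lung most of them belong to the capillary net around the air spaces. Some of their genes hold the wall together at the junctions between cells, others receive growth signals such as vascular endothelial growth factor (VEGF) and the angiopoietins. Lung capillaries hold a pair of specialised cell types, the aerocyte, which lies against the thin gas-exchange surface and for which Car4, Ednrb and high Kdr are known, and the general capillary cell, for which Gpihbp1 and Plvap are known.

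Promoter sequences of 5 of the 10 genes were in the RefSeq table (build GRCm38.p6), each running from 250 bases before the transcript start to 50 after it. Of these 5, the 4 below are shown for how their genes differed. Tek had the largest difference between the tumor-free and the tumor-bearing lung without exercise, Kdr stood furthest below the tumor-free level in E(+)T(+), Cldn5 stood above it, and Car4 is an aerocyte marker. Capitals mark matches to the 5 motifs searched on both strands. The core of the ETS factors was searched as CCGGAAG, and with another flank as CAGGAAG. SOX factors were searched by the letters AACAAT. The core promoter element known as the TATA box was searched as TATAAA. The motif of the zinc finger family of GATA factors was searched as AGATAA. Matches of different motifs did not overlap in these windows.
Tek (chr4:94739039-94739338, plus strand): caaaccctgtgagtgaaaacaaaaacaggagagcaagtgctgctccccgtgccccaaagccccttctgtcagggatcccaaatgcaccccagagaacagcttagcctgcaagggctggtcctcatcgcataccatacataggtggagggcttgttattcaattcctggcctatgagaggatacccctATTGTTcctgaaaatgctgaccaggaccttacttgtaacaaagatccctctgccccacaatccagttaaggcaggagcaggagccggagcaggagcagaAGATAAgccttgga
Kdr (chr5:75978406-75978705, minus strand): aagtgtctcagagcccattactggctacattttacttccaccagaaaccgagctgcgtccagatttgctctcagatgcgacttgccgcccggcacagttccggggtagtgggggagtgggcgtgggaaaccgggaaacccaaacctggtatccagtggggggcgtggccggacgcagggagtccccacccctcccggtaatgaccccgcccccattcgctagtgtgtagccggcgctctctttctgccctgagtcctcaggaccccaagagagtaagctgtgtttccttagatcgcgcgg
Car4 (chr11:84957504-84957803, plus strand): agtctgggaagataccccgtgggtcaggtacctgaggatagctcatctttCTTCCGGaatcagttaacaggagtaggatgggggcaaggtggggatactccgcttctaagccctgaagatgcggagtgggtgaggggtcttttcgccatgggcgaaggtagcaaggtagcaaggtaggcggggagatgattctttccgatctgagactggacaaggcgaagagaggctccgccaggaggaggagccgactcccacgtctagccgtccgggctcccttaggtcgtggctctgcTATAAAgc
Cldn5 (chr16:18776597-18776896, plus strand): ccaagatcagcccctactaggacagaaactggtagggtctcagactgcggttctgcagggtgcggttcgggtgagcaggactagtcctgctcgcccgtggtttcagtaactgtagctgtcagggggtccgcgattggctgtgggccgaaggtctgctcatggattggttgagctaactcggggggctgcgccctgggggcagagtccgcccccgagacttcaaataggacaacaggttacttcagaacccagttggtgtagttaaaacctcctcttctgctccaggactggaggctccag
The Tek promoter held ATTGTT, the SOX letters on the other strand, 63 bases before the start, and AGATAA 37 bases after it. The Car4 promoter held CTTCCGG, the ETS letters on the other strand, 200 bases before the start, and TATAAA 43 bases after it. None of the 5 motifs was in the windows of Kdr, Cldn5 and Ednrb. Such matches are common, since 10.7% of all 32851 promoters in the table held the SOX letters, 11.2% the GATA letters, 8.86% CCGGAAG, 13.3% CAGGAAG and 13.6% TATAAA. They describe the letters and not the binding of a factor. Ednrb, the fifth gene found in the table, had a GC content of 58.7%, beside 52.0% for Tek, 57.3% for Car4, 58.3% for Cldn5, 60.7% for Kdr and a median of 52.7% over all promoters.

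Summed over genes, the reads recovered from the deposited values ran from 9354445 to 13367977 per library. The libraries differed in more than the vessel genes. Hemoglobin transcripts held 14.33% of the reads in the normal control, 14.17% with exercise alone, 1.43% with tumor alone and 31.43% with both. Shares of all 15164 genes past a 2-fold limit are therefore given beside each count of the 10.

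The endothelial genes held 31572 reads in the normal control, 29396 with exercise alone, 3294 with tumor alone and 20491 with both. Their summed normalized count in E(-)T(+) was 13.46% of the normal control's, while E(+)T(-) had 100.7% and E(+)T(+) 89.29%. The sum in E(+)T(+) leans on Pecam1 at 117.7%, Cldn5 at 190.5% and Gpihbp1 at 210.9% of their control levels, and the other 7 genes were between 34.9% for Kdr and 81.2% for Plvap. As a share of all reads, the 10 genes held 0.243% in the normal control, 0.230% with exercise alone, 0.0352% with tumor alone and 0.153% with both. Each of the 10 genes had its lowest value in the lung with tumor and without exercise. Of all genes that passed the filter, 36.9% had their lowest value in that library. Values in whole tissue are relative to the RNA of all its cells. Fewer endothelial cells, less of these RNAs per cell and more RNA from other cells therefore cannot be told apart.

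**Figure D1:**
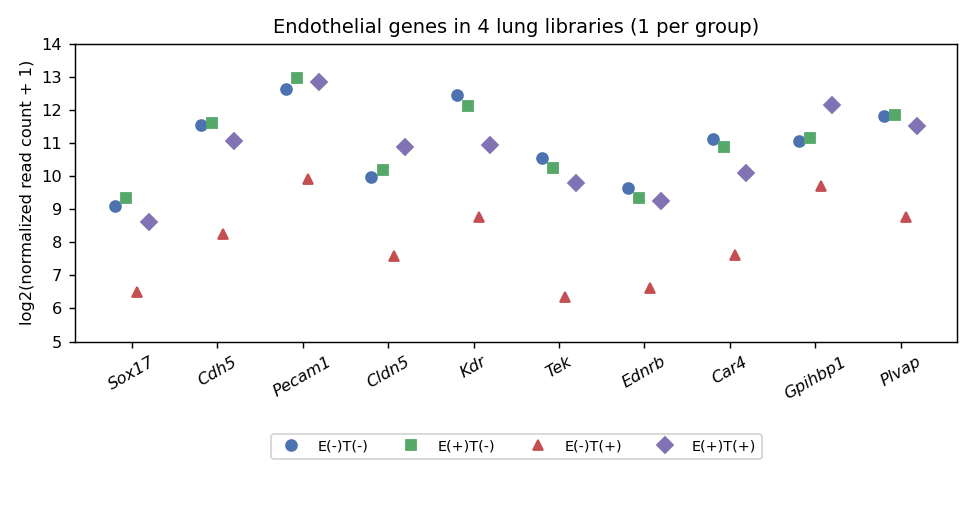
Deposited log2 values (log2 of the normalized read count + 1, vertical axis) of the 10 endothelial genes in the 4 lung libraries, 1 point per library. For every gene the E(-)T(+) point is the lowest, from 6.36 for Tek to 9.90 for Pecam1.

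Without tumor, none of the 10 endothelial genes differed by 2-fold or more between exercise and rest, where 4.70% of all genes were that much lower and 5.28% that much higher. Among genes with a mean normalized count of at least 100, as all 10 have, these shares were 0.447% and 1.68%, so 0 of 10 does not set the endothelial genes apart. Their log2 differences ran from -0.34 for Kdr to 0.33 for Pecam1 with a median of 0.025, beside an all-gene median of 0.0. The 4 genes below 0 were Kdr, Tek, Ednrb and Car4.

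With tumor and without exercise, all 10 genes were lower than in the normal control by 2-fold or more, as were 25.7% of all genes. The log2 differences ran from -4.18 for Tek to -1.37 for Gpihbp1 with a median of -3.05, beside an all-gene median of -0.03. A further 20.6% of all genes, and none of the 10, were higher by 2-fold or more.

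With tumor, the exercised lung had higher values than the resting lung for all 10 genes by 2-fold or more, as for 24.3% of all genes, while 17.7% of all genes and none of the 10 were that much lower. The differences ran from 2.12 for Sox17 to 3.42 for Tek with a median of 2.71, beside an all-gene median of 0.009. This comparison and the one before it share the E(-)T(+) library, so a single low library enters both.

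Between the exercised lungs, the tumor-bearing one differed from the tumor-free one by a median of -0.38, beside -0.003 over all genes. Only Kdr was lower by 2-fold or more, as were 13.0% of all genes, and no member was higher by that much, as were 14.9%. Among genes with a mean normalized count of at least 100 these shares were 8.14% and 9.8%. The differences ran from -1.18 for Kdr to 0.99 for Gpihbp1, and 8 of the 10 were below 0, the exceptions being Cldn5 and Gpihbp1. With library totals alone as the scaling the median was -0.794, and Sox17 at -1.13 and Car4 at -1.20 were also past the limit.

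**Figure D2:**
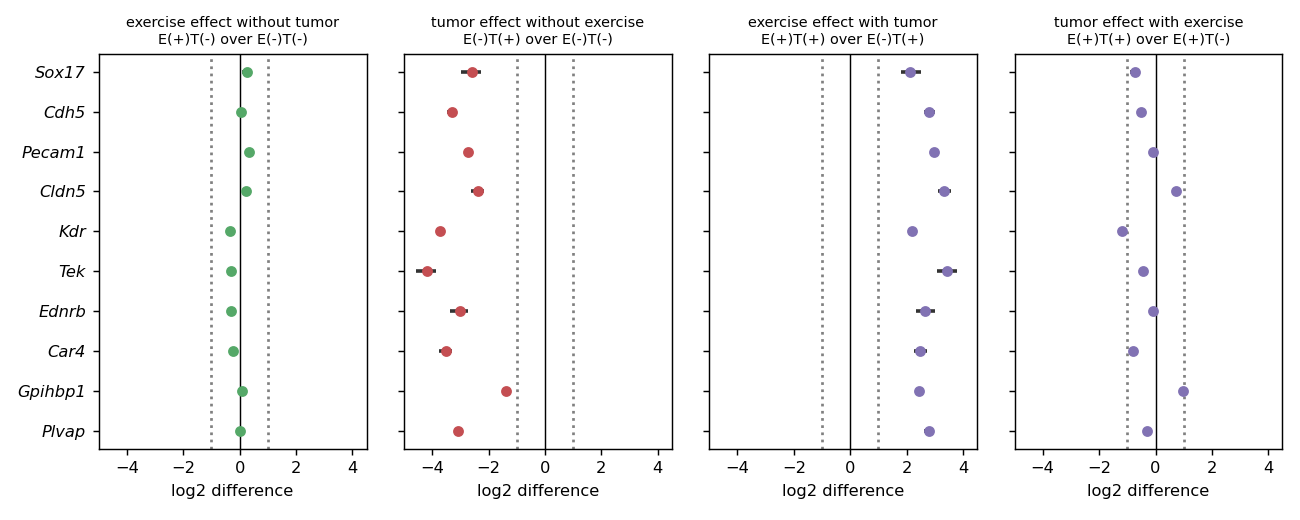
Log2 differences of the 10 genes in the 4 comparisons (horizontal axis), with bars for 95% exact intervals (counting error alone) and dotted lines at the 2-fold limit. Tumor without exercise lies between -4.18 and -1.37, and exercise with tumor between 2.12 and 3.42. Exercise without tumor lies between -0.34 and 0.33, and tumor with exercise between -1.18 and 0.99, with 8 of 10 genes below 0.

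Sox17 encodes a transcription factor of arterial and lung endothelial identity. It lies at chr1:4490931-4497354, minus strand (build GRCm38, which is mm10). Its log2 value was 9.09 in the normal control, 9.34 with exercise alone, 6.49 with tumor alone and 8.61 with both, from 638, 702, 81 and 334 reads. The 3 other libraries lay within 1 log2 unit of each other, and E(-)T(+) lay well below them. Tumor without exercise came with a difference of -2.60 (95% exact interval -2.96 to -2.28), a 6.05-fold lower level. The exercised tumor lung was 2.12 (1.78 to 2.51) above the resting one, the smallest such difference of the 10, and -0.72 (-0.92 to -0.53) from the exercised tumor-free lung. Here and below, intervals cover the counting of reads and not the spread between mice.

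Among the junction genes, Cdh5, which encodes VE-cadherin, the adhesion protein of endothelial junctions, had log2 values of 11.55 in the normal control, 11.60 with exercise alone, 8.26 with tumor alone and 11.07 with both. Reads fell from 3537 in the normal control to 279 in the cancer control, a 9.80-fold lower level. The difference was -3.29 (-3.48 to -3.12). Exercise with tumor was 2.81 (2.63 to 3.001) above rest with tumor, and E(+)T(+) was still -0.53 (-0.61 to -0.44) from E(+)T(-). Under library totals alone this last difference was -0.94. On both scalings Cdh5 in E(+)T(+) lay between the resting tumor lung and the tumor-free lungs. The gene lies at chr8:104101625-104144511, plus strand.

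Pecam1, the adhesion protein CD31 at endothelial junctions, had log2 values of 12.63 in the normal control, 12.96 with exercise alone, 9.90 with tumor alone and 12.86 with both. E(+)T(+) lay between both tumor-free lungs, though below both with library totals alone, and E(-)T(+) was 6.62-fold below the normal control, a difference of -2.73 (-2.83 to -2.63). Between the exercised lungs the difference was -0.10 (-0.14 to -0.05), the smallest but that of Ednrb, and it was -0.51 with library totals alone. The gene lies at chr11:106654217-106750628, minus strand. Pecam1 is also made by platelets and leukocytes. The summed normalized counts of the platelet markers were 2266 in the normal control, 3858 with exercise alone, 6149 with tumor alone and 25400 with both, and those of the leukocyte markers 7175, 6601, 3808 and 15850 in the same order. No marker of either list was at 0 reads in any library, and their part in the Pecam1 values was not tested.

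Cldn5 encodes claudin-5, the tight junction protein of endothelium. It lies at chr16:18776847-18778262, plus strand. Its log2 value was 9.97 in the normal control, 10.18 with exercise alone, 7.58 with tumor alone and 10.90 with both, from 1178, 1261, 174 and 1631 reads. It was one of the only 2 of the 10 genes with their highest value in the exercised tumor lung. Tumor without exercise came with -2.39 (-2.63 to -2.16), and tumor with exercise with 0.72 (0.61 to 0.83). With library totals alone the latter was 0.31. The difference between the tumor-bearing lungs was 3.32 (3.10 to 3.56), or 9.95-fold, second to that of Tek.

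Among the growth factor receptors, Kdr, the main signalling receptor for VEGF (VEGFR-2), had log2 values of 12.46 in the normal control, 12.12 with exercise alone, 8.75 with tumor alone and 10.94 with both. Its reads were 6629, 4855, 393 and 1681 in the same order. Its 4 libraries stood at separate levels, and the exercised tumor lung lay between the resting tumor lung and both tumor-free lungs. Tumor without exercise came with -3.71 (-3.86 to -3.56), a 13.1-fold lower level, and exercise with tumor with 2.19 (2.03 to 2.35). E(+)T(+) remained 2.27-fold below E(+)T(-), a difference of -1.18 (-1.26 to -1.10), the largest shortfall of the 10. Exercise without tumor also came with a lower value, at -0.34 (-0.39 to -0.28). The Kdr gene lies at chr5:75932827-75978458, minus strand.

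Tek encodes Tie2, the receptor for the angiopoietins. It lies at chr4:94739289-94874976, plus strand. Its log2 value was 10.54 in the normal control, 10.24 with exercise alone, 6.36 with tumor alone and 9.78 with both, from 1755, 1311, 74 and 751 reads. It had both the largest fall and the largest gain of the 10. Its level in the cancer control was 18.2-fold below the normal control, a difference of -4.18 (-4.56 to -3.87), and exercise with tumor stood 10.7-fold above rest with tumor, a difference of 3.42 (3.09 to 3.80). Between the exercised lungs the difference was -0.46 (-0.59 to -0.33).

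Ednrb, the endothelin B receptor and a marker of aerocytes, had log2 values of 9.64 in the normal control, 9.34 with exercise alone, 6.62 with tumor alone and 9.26 with both. Its reads were 939, 706, 89 and 525. The gene lies at chr14:103814625-103844402, minus strand. It was the one member whose interval between the exercised lungs included 0, at -0.08 (-0.25 to 0.09). Library totals alone put this difference at -0.49, with 39.3 CPM (exact interval 36.0 to 42.8) in E(+)T(+) and 55.2 CPM (51.2 to 59.5) in E(+)T(-). Without exercise the tumor-bearing lung was 8.10-fold lower, at -3.02 (-3.36 to -2.72), and exercise with tumor was 2.64 (2.33 to 2.995) above rest.

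Among the other capillary genes, Car4, a membrane-bound carbonic anhydrase and aerocyte marker that helps carbon dioxide leave the blood, had log2 values of 11.11 in the normal control, 10.87 with exercise alone, 7.61 with tumor alone and 10.09 with both. Reads were 2607, 2035, 177 and 929. The gene lies at chr11:84957786-84966044, plus strand. The cancer control was 11.4-fold below the normal control, at -3.51 (-3.74 to -3.29). Exercise with tumor was 2.48 (2.25 to 2.73) above rest, and E(+)T(+) was -0.78 (-0.90 to -0.67) from E(+)T(-), after Kdr the largest shortfall.

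Gpihbp1 encodes the protein that carries lipoprotein lipase to the capillary surface. It lies at chr15:75596628-75599481, plus strand. Its log2 value was 11.08 in the normal control, 11.16 with exercise alone, 9.71 with tumor alone and 12.15 with both, from 2538, 2493, 761 and 3889 reads. It fell least in the resting tumor lung, by 1.37 on the log2 scale (difference -1.37, interval -1.49 to -1.25), or 2.58-fold. In the exercised tumor lung it was above both tumor-free lungs, by 0.99 (0.92 to 1.06) over E(+)T(-), a 1.99-fold difference just under the 2-fold limit. Scaled by library totals alone, Gpihbp1 was 0.58 above E(+)T(-). Its difference between the tumor-bearing lungs, 2.45 (2.33 to 2.56), was the third lowest of the 10. Lpl, which encodes the lipase, was likewise higher in E(+)T(+) than in E(+)T(-), by 1.17 (1.09 to 1.26), and differed by -0.83 (-0.92 to -0.74) between the resting lungs.

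Plvap encodes the protein of the diaphragms that close endothelial caveolae and fenestrae. Its log2 value was 11.84 in the normal control, 11.84 with exercise alone, 8.75 with tumor alone and 11.53 with both. The tumor-free lungs differed by 0.01 (-0.06 to 0.07), and the cancer control was 8.46-fold lower, at -3.08 (-3.24 to -2.94). Exercise with tumor was 2.78 (2.63 to 2.94) above rest, and the exercised lungs differed by -0.31 (-0.38 to -0.24). Plvap's last exon (gene at chr8:71497765-71511752, minus strand) overlaps the protein-coding gene Gtpbp3 on the opposite strand, and whether the authors' counting used strand is not given in the sources used here. Plvap held 4298, 3995, 393 and 2536 reads, and Gtpbp3 held 112, 75, 128 and 79 in the same order. Sox17 and Cdh5 overlap opposite-strand gene models outside their last exons, and the other 7 overlap none.

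To see how the members differed among themselves, each was set against Cdh5 in the same library, which takes out the scaling between libraries. Plvap kept nearest to Cdh5, with a log2 ratio that ranged over 0.25 log2 units across the 4 libraries. Gpihbp1 departed most, over 1.92 units, with ratios of -0.48 in the normal control, -0.44 with exercise alone, 1.45 with tumor alone and 1.08 with both. Its shift against Cdh5 with tumor was 1.92 (95% exact interval 1.71 to 2.14) at rest and 1.52 (1.41 to 1.63) with exercise. Gpihbp1 thus stood apart in both tumor-bearing lungs, on top of the lower level at rest.

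Cldn5 also gained on Cdh5, by 0.91 (0.61 to 1.20) with tumor at rest and by 1.25 (1.11 to 1.38) with tumor and exercise. Kdr had a lower ratio to Cdh5 than the normal control in each other library, with 0.91 in the normal control, 0.53 with exercise alone, 0.49 with tumor alone and -0.13 with both. The shift of Kdr with tumor was -0.41 (-0.65 to -0.18) at rest and -0.66 (-0.77 to -0.54) with exercise. Tek lost 0.89 on the log2 scale at rest (change -0.89, interval -1.30 to -0.52) and differed by 0.07 (-0.09 to 0.23) with exercise. For Car4 the interval at rest included 0, at -0.21 (-0.51 to 0.07), and it did not with exercise, at -0.26 (-0.40 to -0.12). Sox17, Pecam1 and Ednrb ranged over 0.70, 0.72 and 0.62 units.

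**Figure D3:**
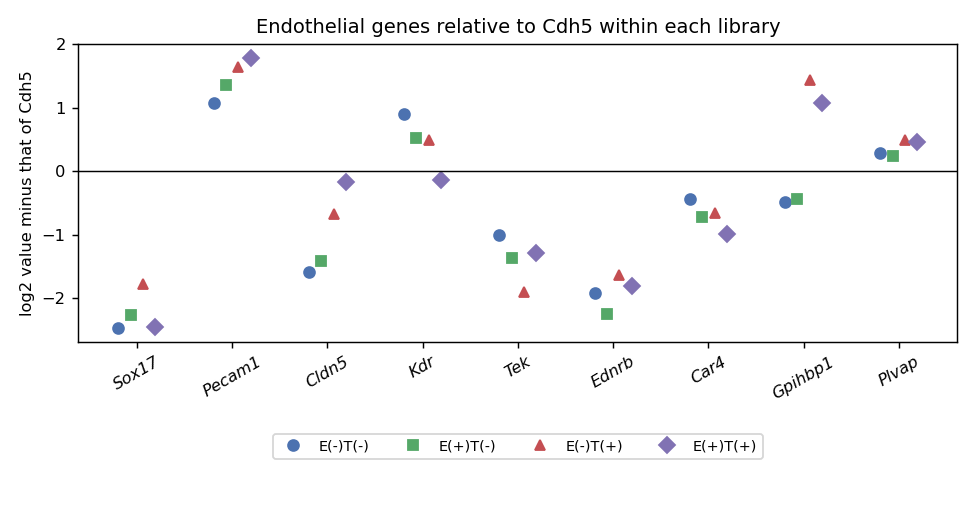
Log2 ratio of each member to Cdh5 in the same library (log2 value minus that of Cdh5, vertical axis), 1 point per library. Gpihbp1 lies at -0.48 and -0.44 without tumor and at 1.45 and 1.08 with it, and Kdr lies highest in E(-)T(-) at 0.91 and lowest in E(+)T(+) at -0.13.

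The ligands and partners of these receptors are known to act on them from nearby cells or from the endothelium itself. Of 17 measured ligands, receptors and enzymes of the VEGF, angiopoietin and endothelin systems other than the members, 12 were lower and none higher by 2-fold or more in E(-)T(+) than in E(-)T(-), with a median of -1.78. Of all genes 25.7% were lower and 20.6% higher in that comparison. Exercise with tumor had 11 higher and 2 lower, Vegfb and Nrp2, than rest with tumor, beside 24.3% and 17.7% of all genes. With library totals alone these counts became 7 higher and 4 lower, with a median of 0.89. Tumor at rest then had 2 genes higher, as it did with median-of-ratios size factors. Between the exercised lungs 3 (Vegfc, Angptl4 and Tie1) were lower and 1 (Pgf) higher, with a median of -0.587. The shares of all genes there were 13.0% and 14.9%. Library totals alone made these counts 8 lower and 1 higher, with a median of -0.999. Vegfa, the main ligand of Kdr, differed by -2.43 (-2.56 to -2.31) between the resting lungs and by 1.69 (1.56 to 1.83) between the tumor-bearing ones. Flt1, the VEGF receptor that acts largely as a decoy, differed by -1.78 and 1.88 in the same comparisons.

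Angpt1, the activating ligand of Tek, differed by -1.98 with tumor at rest and by 1.35 with exercise in the tumor-bearing lungs. Angpt2, the ligand that often opposes it, differed by -1.56 and by 0.23 (-0.26 to 0.72), the second with an interval that included 0. Tie1, the partner receptor of Tek, was at -3.67 (-4.09 to -3.31) with tumor at rest and -1.05 between the exercised lungs. Edn1, the endothelin-1 ligand of Ednrb, differed by -1.42 with tumor at rest and by 2.69 with exercise in the tumor-bearing lungs. Vegfb, another VEGF family ligand, went the other way, at 0.99 with tumor at rest and -1.74 (-2.01 to -1.49) with exercise.

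Of 12 junction partners, most of which encode tight and adherens junction proteins that epithelium also uses, all 12 were lower by 2-fold or more in E(-)T(+) than in E(-)T(-), with a median of -2.06. In the exercised tumor lung 8 were higher and 1 lower than at rest, with a median of 1.47, and between the exercised lungs 1 was lower and none higher. Of all genes, 25.7% were lower with tumor at rest, and 24.3% higher and 17.7% lower with exercise in the tumor-bearing lungs. Between the exercised lungs 13.0% of all genes were lower and 14.9% higher, so 1 lower gene of 12 does not set these partners apart. Esam, an adhesion molecule of endothelial junctions, is in this list and among the other endothelial markers. The lower gene was Ctnnd1, the adherens junction protein p120-catenin, both times. On the scaling by library totals alone 5 were higher than at rest, with a median of 0.88, and 5 were lower between the exercised lungs, while tumor at rest had 11 of 12 lower, as it did with median-of-ratios size factors. Ocln, the tight junction protein occludin, had 172, 159, 9 and 131 reads across the 4 libraries and a difference of -3.75 (-5.04 to -2.93) with tumor at rest. Ctnnb1, beta-catenin, which also acts in most other cells, was nearest to no change at -1.01.

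Of 25 other endothelial markers, 24 were lower by 2-fold or more with tumor at rest, with a median of -2.71, and 21 were higher and 1 lower with exercise in the tumor-bearing lungs, with a median of 2.34. The lower one was the transcription factor gene Sox18, on 2 reads with tumor alone and 0 with both, which is at or under the counting floor of 3 reads. Of all genes, 25.7% were lower with tumor at rest, and 24.3% higher and 17.7% lower with exercise in the tumor-bearing lungs. Calcrl, a receptor component for adrenomedullin, had the largest fall with log2 values of 13.56, 13.50, 8.86 and 11.97 in the order above. Cav1, the caveolar coat protein, moved least, at -0.77 with tumor at rest and -0.11 with exercise. Between the exercised lungs 7 of the 25 were lower and none higher, with a median of -0.59, and scaling by library totals alone made this 12 lower, with a median of -1.0. As deposited, 13.0% of all genes were lower and 14.9% higher there.

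Markers of vessel types are given list by list, and differences between the lists were not tested. The shares of all genes to read them against are 25.7% lower and 20.6% higher with tumor at rest, and 13.0% lower and 14.9% higher between the exercised lungs. Some genes stand in more than 1 list, namely Tie1 and Flt1 (endothelial and VEGF lists), Flt4 (VEGF and lymphatic) and Cd93 and Ptprb (endothelial and general capillary). Of 6 aerocyte markers all were lower by 2-fold or more with tumor at rest, with a median of -2.34, and 3 (Apln, Chst1 and Emp2) remained lower between the exercised lungs, with a median of -0.77. Tbx2, a transcription factor, was at -3.19 with tumor at rest and -0.24 between the exercised lungs, whereas Chst1, a sulfotransferase, was at -1.70 and -1.83. Emp2, a membrane protein that alveolar type 1 cells also express, was at -2.02 and at the limit itself, -1.0. Apln, the ligand apelin made by aerocytes, was at -1.91 with tumor at rest and -3.34 (-3.80 to -2.96) between the exercised lungs. Of 6 general capillary markers 5 (Aplnr, Kit, Cd93, Ptprb and Hpgd) were lower with tumor at rest, with a median of -3.55, and none was lower and 1 (Lpl) higher between the exercised lungs, with a median of -0.22. With library totals alone as the scaling 2 were lower and none higher there, with a median of -0.63, and with totals that leave out hemoglobin 1 was lower and 1 higher. Cd93, an endothelial surface lectin, was at -2.34 and 0.19 in these comparisons. Aplnr, the apelin receptor, went from 342 reads in the normal control to 131 with exercise alone, 5 with tumor alone and 53 with both.

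Of 7 arterial markers all were lower with tumor at rest, with a median of -2.85, and the median between the exercised lungs was 0.34, which became -0.07 when library totals alone were used for scaling. Hey1, a Notch target of arteries, was at -3.50 and 0.34, and Efnb2, the arterial ligand ephrin-B2, at -1.55 and 1.11. Of 6 venous markers 2 (Vwf and Slc6a2) were lower and 1 (Ackr1) higher with tumor at rest, with a median of -0.41. Ackr1 had 2 reads in the normal control, under the floor of 3, and 31 with tumor alone. On library totals alone 2 of the 6 were higher at rest. Between the exercised lungs 3 (Slc6a2 at 1.24, Ackr1 at 3.18 and Vwf at 1.24) were higher and none lower, with a median of 0.79, and 1 was higher with library totals alone. The venous counts at rest are near the shares of all genes. Vwf, and Mmrn1 among the lymphatic markers, are also made by megakaryocytes and platelets, and all 8 platelet markers were higher by 2-fold or more in E(+)T(+) than in E(+)T(-), with a median of 2.38. Their part in the Vwf and Mmrn1 values was not tested. Nr2f2, a transcription factor of vein identity that fibroblasts also express, was at 0.91 (0.84 to 0.99), and Vwf, the clotting protein, at -2.39 (-2.58 to -2.21), both with tumor at rest. Of 5 lymphatic markers 3 (Flt4, Mmrn1 and Reln) were lower with tumor at rest, and 4 (Prox1, Lyve1, Mmrn1 and Reln) were higher in E(+)T(+) than in E(+)T(-), with a median of 1.58. Prox1 rests on 7 against 2 reads, the latter under the floor of 3 reads, with an interval of -0.24 to 5.46 that includes 0. The count was 3 with either scaling by library totals, and the median was 1.07 at a pseudocount of 4. Lyve1, which lung macrophages can also make, was at -0.35 with tumor at rest and 1.04 between the exercised lungs.

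**Figure D4:**
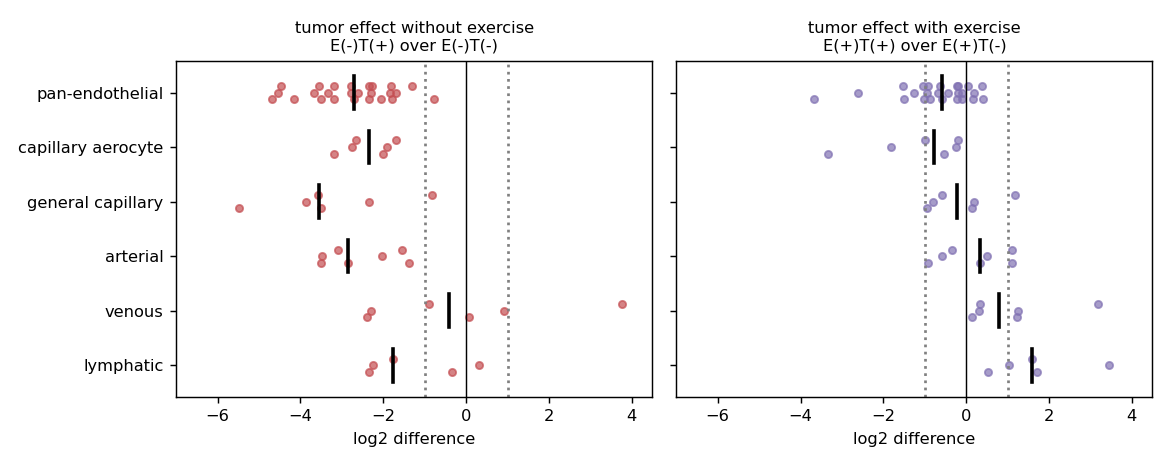
Log2 differences (horizontal axis) of the genes of 6 vessel lists, without the members, with tumor at rest (left) and with tumor and exercise (right), as 1 point per gene with a black bar at the median and dotted lines at the 2-fold limit. At rest the medians run from -3.55 for general capillary markers to -0.41 for venous markers.

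The other cell types of the lung gave the following levels beside the endothelial values. Alveolar type 2 markers, genes of the surfactant-making cells, summed to 195000 normalized counts in the normal control, 226600 with exercise alone, 26740 with tumor alone and 152700 with both. Smooth muscle and pericyte markers summed to 4473, 5030, 960.5 and 4014 in the same order. Alveolar type 1 markers summed to 50840, 66350, 35200 and 39180, and fibroblast markers to 42280, 41420, 26080 and 32100. All 4 of these sums were lowest in E(-)T(+), as the endothelial genes, the leukocyte markers and the erythroid markers were. Scaled by library totals alone, the type 1 and fibroblast sums were instead lowest in E(+)T(+), at 2507 and 2054 CPM beside 3434 and 2544 in E(-)T(+). The type 1 and fibroblast sums in that library hold a large share from 1 gene each that went the other way with tumor at rest, Akap5 at 2.55 and Col1a2 at 2.78. Of the 7 type 1 markers 5 were lower and 1 higher by 2-fold or more, with a median of -1.70, and of the 8 fibroblast markers 4 were lower and 3 higher, with a median of -1.22. The shares of all genes with tumor at rest were 25.7% lower and 20.6% higher.

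Cell division markers summed to 360 in the normal control, 743.4 with exercise alone, 10950 with tumor alone and 3531 with both, with 1 gene of the list at 0 reads in E(-)T(-). Neutrophil markers summed to 3811, 12090, 9642 and 207300. Erythroid markers summed to 4265, 4441, 491.5 and 19560, with 2, 3, 2 and 0 genes at 0 reads. The highest cell division sum was in the library where the endothelial genes were lowest, and the highest neutrophil, platelet and erythroid sums were in E(+)T(+). Their part in the endothelial values was not tested.

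**Figure D5:**
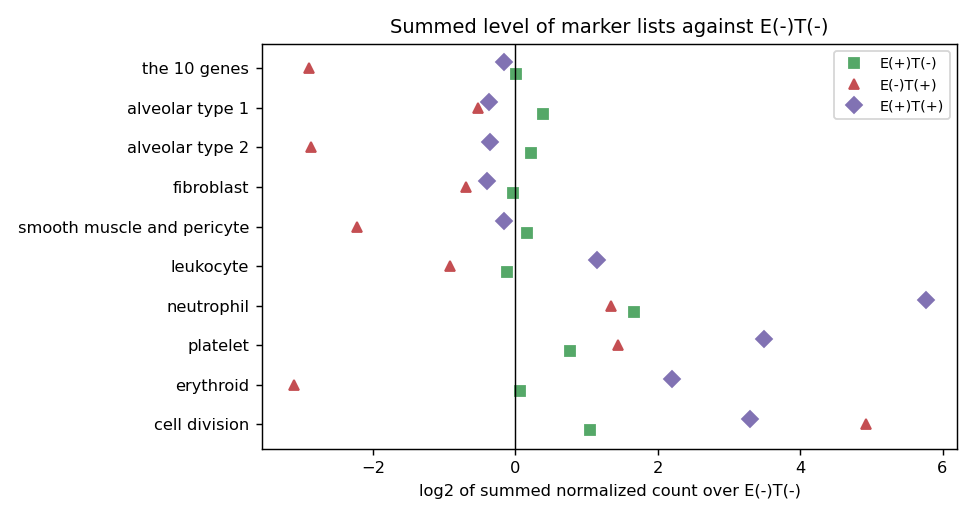
Summed normalized counts of marker lists and of the 10 endothelial genes relative to E(-)T(-) (log2 scale, horizontal axis), 1 point for each of the other 3 libraries. The sums of the endothelial genes and of the type 1, type 2, fibroblast, smooth muscle and pericyte, leukocyte and erythroid markers are lowest in E(-)T(+) (not the type 1 and fibroblast sums under library totals alone), and the cell division sum is highest there at 10950 normalized counts.

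The genes whose pattern over the 4 libraries was nearest to the median pattern of the members, each centred on its own mean, among 11057 genes outside the lists with a mean normalized count of 50 or more, were Cyyr1, Crip2, Il11ra2, Fam183b and Cat. Their Euclidean distance from that pattern was 0.084, 0.101, 0.116, 0.157 and 0.168 log2 units. Il11ra2 has near-identical copies and its reads are uncertain. Of the members, Plvap was closest to it at 0.076 and Gpihbp1 furthest at 1.56. With 4 libraries such likeness is a description, and it includes genes such as Cat, the enzyme catalase, that are not known as endothelial markers.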

How the data were processed

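Lung RNA was measured in 4 libraries, 1 per group, with a kit that reads the 3' ends of transcripts. Per the labels the authors used Bowtie2 and bedtools with mm10. The counts were normalized with edgeR's quantile method by the authors, and the deposited values are log2 of the normalized read count + 1. Versions, annotation and strand use are not given in the sources used here. The members and gene lists were chosen with earlier results of these data known.

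Whole reads were recovered by inverting the quantile adjustment (dispersion 0.372, 100% of values within 0.001). Python 3.11.15, numpy 2.4.6, scipy 1.17.1 and pandas 2.3.3 were used. The recovery was tested on data simulated with the same model. That test checks the inversion and not whether the authors' processing followed the model. Exact recovery was scored there for smaller counts only, so large read counts are approximate. Differences are of the deposited log2 values, at a limit of 2-fold. The 95% intervals are Clopper-Pearson intervals of read ratios scaled by effective library sizes, or conditional intervals of odds ratios against Cdh5. A count of 3 reads corresponded to 0.224 to 0.321 CPM. Without unique molecular identifiers, intervals and floors cover counting error only. From each marker list the gene with the highest mean level and those with the lowest and highest difference with tumor at rest, taken over genes with a mean normalized count of 50 or more, could be named, as could the genes behind counts of 5 or fewer, chosen after their values were seen, besides the ligands and receptors of the members. Other scalings, pseudocounts, filters and fold limits were tried. Gene positions were from GENCODE M21.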

Additional observations from a re-analysis of the deposited data

Results flagged for a closer look

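For 4 members, exercise came with a lower value in the tumor-free lung and a higher value in the tumor-bearing lung, with counting intervals that did not include 0. The exercise effect with tumor minus that without was 2.52 for Kdr, 3.73 for Tek, 2.94 for Ednrb and 2.72 for Car4 on the log2 scale. These sizes do not set the 4 apart, since the same contrast ran from 1.87 for Sox17 to 3.73 for Tek over all 10 members, with 2.77 for Cdh5, 2.77 for Plvap and 2.63 for Pecam1. For 2 members, tumor came with a lower value at rest and a higher value with exercise. The tumor effect with exercise minus that at rest was 3.11 for Cldn5 and 2.36 for Gpihbp1. It equals the exercise contrast above, and these sizes lie inside its range and do not set the 2 apart either. With 1 library per group these differences were not tested.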

How the results depend on the processing

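No paired analysis was possible because each group has 1 library, and for the same reason no replicate could be left out. With library totals alone as the scaling, the median member difference was -0.061 for exercise without tumor, -2.94 for tumor without exercise, 2.10 for exercise with tumor and -0.794 for tumor with exercise, and 3 members (Kdr, Car4 and Sox17) were lower by 2-fold or more in the last. With totals that leave out hemoglobin the medians were -0.064, -3.14, 2.63 and -0.47, and with median-of-ratios size factors that for exercise without tumor was 0.049. With library totals alone the all-gene median stood at -0.594 for exercise with tumor and -0.41 for tumor with exercise, beside 0.009 and -0.003 as deposited. At a fold limit of 1.5, tumor with exercise had 3 members lower and 2 higher. Of 160 recomputed single values 5 changed sign, all for Cdh5, Plvap or Gpihbp1 in exercise without tumor. No difference past the 2-fold limit reversed, but the changes of scaling were too small to reverse one.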
